A study of Mus musculus with 6 samples.

Results

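The genes described here are 10 markers of fat cells, and fat cells lie in the epineurium, the loose connective tissue around the sciatic nerve. They were chosen by symbol, and all 10 (Adipoq, Plin1, Plin4, Cidec, Cidea, Fabp4, Lpl, Lep, Ucp1 and Pparg) were found among the 24015 genes that were counted in each of 6 libraries. Of these, 8 are expressed in white fat or in both white and brown fat, and 2 (Ucp1 and Cidea) are preferentially expressed in brown fat. The 8 white or shared genes had enough reads for a test between genotypes, whereas Ucp1 and Cidea did not. Where in the dissected tissue these RNAs came from was not measured.

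RNA from sciatic nerves of mice at postnatal day 14 was sequenced in 3 control and 3 Rnf40ΔSC libraries. Controls carried floxed Rnf40 alleles (Rnf40 fl/fl), and Rnf40ΔSC mice, labelled cko, carried the same alleles together with the Dhh::Cre transgene, which is active in the Schwann cell lineage. Rnf40 is a subunit of the ligase that attaches ubiquitin to histone H2B, and the comparison asks how its loss from Schwann cells changes the RNA of the whole nerve. Each library came from a pool of 3 nerves, so that differences between single animals were not measured. The labels name a mixed 129SvJ/C57Bl/6J background for both genotypes, whereas the methods of the study name C3H × C57Bl/6J. Total counts were 1317167, 1992622 and 2468765 in control libraries 1 to 3 and 2184268, 1459387 and 2186710 in Rnf40ΔSC libraries 1 to 3. Levels are given as CPM, the count of a gene relative to all counts of its library (scaled to 1e6) after TMM correction for composition, on which a single count was worth between 0.411 and 0.818 CPM.

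White adipocytes store triglyceride in a large droplet that is coated by perilipins and release fatty acids and hormones. Brown adipocytes hold many small droplets and burn fatty acids in mitochondria that are uncoupled by Ucp1. Both kinds differentiate under the nuclear receptor Pparg, and in peripheral nerve the epineurial fat surrounds and cushions the fascicles.

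The targeted gene and the markers of the tissue were examined first. Rnf40 was at 67.1, 65.1 and 73.1 CPM in the controls and at 46.5, 46.6 and 48.5 CPM in Rnf40ΔSC. Every Rnf40ΔSC library was below every control library, in the direction that the labels imply (log2 fold change -0.54 ± 0.14 SE, adjusted p = 0.00243, edgeR quasi-likelihood test with Benjamini-Hochberg). By design other cells of the nerve keep the gene, and the counts do not resolve the deleted exons. Of 10 Schwann cell genes, which mark the main glial cell of the nerve, none was at 0 in all libraries.

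All 8 tested adipocyte genes had a negative log2 fold change in Rnf40ΔSC against control, 5 of them past adjusted p, with a median of -0.66 compared to -0.002 over all 11371 tested genes, of which 50.2% were below 0. A gene counted as called if 3 limits were met: adjusted p up to 0.05, a log2 fold change of 0.8 or more in either direction, and a mean normalised count of 20 or more. By this rule 2 of 8 genes, Plin1 and Pparg, were called lower and 0 were called higher, compared to 4.99% of all tested genes called lower and 3.65% called higher. DESeq2 likewise called 2 lower and 0 higher, and at an unadjusted p under 0.05 in edgeR the counts were 6 lower and 0 higher. Among all tested genes DESeq2 called 4.34% lower and 3.25% higher, and 20.7% were lower and 20.3% higher at an unadjusted p under 0.05. By adjusted p alone 5 of 8 were lower and 0 higher, compared to 16.2% of all tested genes lower and 15.5% higher. In 4 of the 8 (Plin1, Plin4, Lpl and Pparg) every Rnf40ΔSC library was below every control library, which was the case for 21.6% of all tested genes. In whole nerve, fewer adipocytes, less of these RNAs per adipocyte and less from other cells that express some of them cannot be told apart. How much surrounding tissue was taken with each pool was not measured.

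The direction was examined under another scaling, since the TMM factors differed by genotype, with 0.928, 0.894 and 0.914 in the controls and 1.07, 1.10 and 1.11 in Rnf40ΔSC. Scaling by total counts moved the log2 fold changes by 0.266 (median over all genes) and changed the split of calls from 567 lower and 415 higher to 262 lower and 1002 higher. Under it all 8 adipocyte genes were still below 0, with a median of -0.40 beside 0.264 for all genes. Plin1 and Pparg were called in both, and 4 of the 8 rather than 5 passed adjusted p, without Adipoq. The share of all tested genes lower by adjusted p (16.2%) applies to TMM scaling with all libraries. It is not given for total-count scaling or with libraries left out, so that counts by adjusted p under these settings have no share beside them. Under total-count scaling the targeted gene Rnf40 was at -0.27 ± 0.14 SE and did not pass (adjusted p = 0.116, edgeR quasi-likelihood test with Benjamini-Hochberg).

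**Figure D1:**
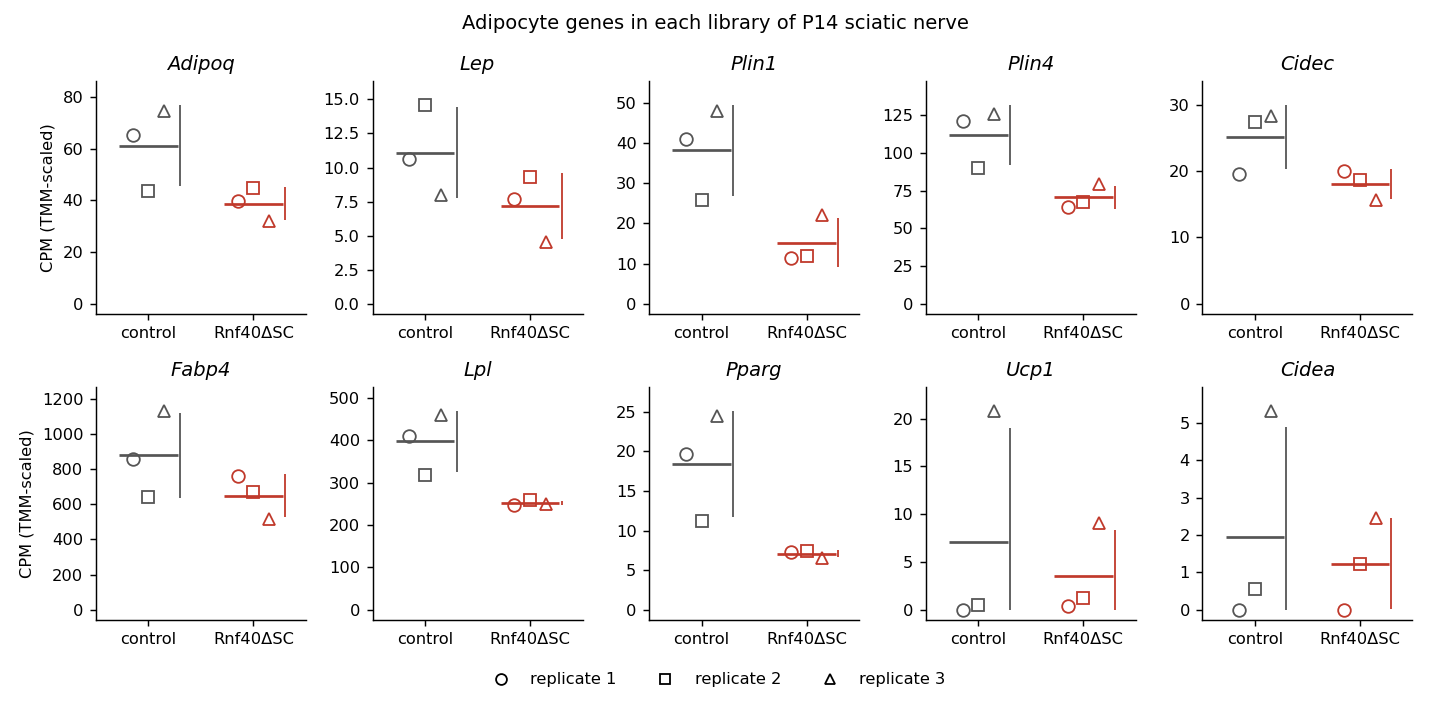
CPM after TMM scaling (vertical axes, each from 0) of the 10 adipocyte genes in 3 control (grey) and 3 Rnf40ΔSC libraries (red). Symbols mark the replicate number, horizontal lines the mean and vertical lines the SD. The groups do not overlap for Plin1, Plin4, Lpl and Pparg, and Ucp1 and Cidea are highest in the library labelled replicate 3 of each genotype.

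Adipoq and Lep encode the hormones adiponectin and leptin and are made by hardly any other cell type. Adipoq (chr16:23146609-23158101 in mm9, plus strand) was at 65.4, 43.8 and 74.5 CPM in the controls and at 39.7, 44.7 and 32.1 CPM in Rnf40ΔSC. Control library 2 was low and lay just under Rnf40ΔSC library 2, so that the groups overlapped. The means were 61.2 ± 15.8 and 38.8 ± 6.37 CPM (SD, n = 3), and the log2 fold change was -0.68 ± 0.17 SE (adjusted p = 0.00307, edgeR quasi-likelihood test with Benjamini-Hochberg), past the limit on p and short of the limit on fold. This depended on control libraries and on scaling. Without control replicate 2 Adipoq was called, at -0.88. It did not pass adjusted p without control replicate 3 (-0.48, adjusted p = 0.0861, edgeR quasi-likelihood, Benjamini-Hochberg) or with scaling by total counts (-0.41, adjusted p = 0.0639, same test), within a range from 0.000235 to 0.209 over all alternatives. Lep (chr6:29010220-29023877, plus strand) was scarce, with 13, 26 and 18 counts in the controls and 18, 15 and 11 counts in Rnf40ΔSC. On the CPM scale these were 10.6, 14.6 and 7.98 compared to 7.68, 9.31 and 4.52, with overlapping groups and with replicate 3 the lowest in each genotype. Its log2 fold change of -0.65 had a 95% confidence interval from -1.35 to 0.06 and did not pass the test (adjusted p = 0.163, edgeR quasi-likelihood test with Benjamini-Hochberg). It was -0.37 without control replicate 2 or Rnf40ΔSC replicate 3 and -0.88 without control replicate 3, again without passing.

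The 300 bases around the start site of Lep are shown because they hold a palindromic match to a motif of C/EBP proteins, which act together with Pparg in fat cells. RefSeq promoters of GRCm38.p6, from 250 bases before to 50 bases after the start site, were matched for 7 of the 10 genes (10 promoters; Cidea, Fabp4 and Lpl had none in the table). They were searched on both strands for TTNNGCAA (C/EBP), for TATAAA and for the direct repeat bound by PPAR and RXR with up to 2 mismatches. These were found in 10.8%, 13.62% and 3.86% of all 32851 promoters, respectively. Among the adipocyte genes the C/EBP motif was found in Lep, Plin1, 1 of 2 promoters of Cidec and 1 of 3 of Pparg, TATAAA in another promoter of Pparg, and the direct repeat in none. The promoter of Lep is chr6:29059971-29060270 (GRCm38.p6, plus strand), with the C/EBP match from -55 to -48 relative to the start site, which reads the same on both strands, in capitals.
Lep: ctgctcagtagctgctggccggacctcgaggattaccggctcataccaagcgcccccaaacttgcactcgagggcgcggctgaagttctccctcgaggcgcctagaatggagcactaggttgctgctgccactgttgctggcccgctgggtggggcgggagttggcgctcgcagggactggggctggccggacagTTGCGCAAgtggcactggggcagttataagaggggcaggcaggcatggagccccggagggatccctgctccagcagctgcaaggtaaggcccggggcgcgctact

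Plin1, Plin4 and Cidec encode proteins on the surface of the lipid droplet. Plin1 (chr7:86866050-86877662 in mm9, minus strand) restrains lipolysis until it is phosphorylated. It was at 40.9, 25.8 and 47.9 CPM in the controls and at 11.5, 11.8 and 22.2 CPM in Rnf40ΔSC. Every Rnf40ΔSC library was below every control library, although Rnf40ΔSC library 3 was close to control library 2. Plin1 fell by 1.31 on the log2 scale (SE 0.26, 95% confidence interval -1.84 to -0.77, adjusted p = 0.000439, edgeR quasi-likelihood test with Benjamini-Hochberg), from a mean of 38.2 ± 11.3 to 15.2 ± 6.09 CPM (SD, n = 3). It was called under every alternative setting that was run, with log2 fold changes from -1.71 to -1.04.

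The promoter of Plin1 is shown as that of a gene that was called. It lies at chr7:79732727-79733026 (GRCm38.p6, minus strand), and capitals mark the C/EBP matches from -187 to -180 and from -58 to -51.
Plin1: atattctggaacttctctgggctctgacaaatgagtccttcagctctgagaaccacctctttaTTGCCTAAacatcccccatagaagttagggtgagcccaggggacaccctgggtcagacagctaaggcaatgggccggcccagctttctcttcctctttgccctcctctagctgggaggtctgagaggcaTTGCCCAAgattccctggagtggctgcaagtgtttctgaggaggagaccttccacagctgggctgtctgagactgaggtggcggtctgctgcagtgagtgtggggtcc

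Plin4 (chr17:56240014-56249225, minus strand) coats small, newly formed droplets and overlaps Hdgfrp2 on the other strand, so that reads of both cannot be told apart if strand was not used in counting. It was at 121, 89.8 and 126 CPM in the controls and at 64.4, 67.7 and 79.3 CPM in Rnf40ΔSC, with no overlap. The log2 fold change of -0.67 ± 0.13 SE passed the limit on p (adjusted p = 8.77e-05, edgeR quasi-likelihood test with Benjamini-Hochberg) and not the limit on fold, except without control replicate 2, where it was called at -0.81. Cidec (chr6:113374628-113385754, minus strand) promotes fusion of droplets. It was at 19.6, 27.5 and 28.4 CPM in the controls and at 20, 18.6 and 15.6 CPM in Rnf40ΔSC. Control library 1 was within the range of Rnf40ΔSC, and the log2 fold change of -0.51 ± 0.22 SE did not pass (adjusted p = 0.0691, edgeR quasi-likelihood test with Benjamini-Hochberg). Without control replicate 1 Cidec passed adjusted p (-0.63, adjusted p = 0.0375, edgeR quasi-likelihood test with Benjamini-Hochberg), and 6 of the 8 tested genes rather than 5 did so.

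Fabp4 carries fatty acids in the cytosol of adipocytes and is also expressed in capillary endothelium and macrophages. Lpl releases fatty acids from circulating lipoproteins and is expressed in muscle and macrophages as well. Fabp4 was at 860, 644 and 1130 CPM in the controls and at 763, 672 and 517 CPM in Rnf40ΔSC. The groups overlapped widely, and the log2 fold change of -0.43 ± 0.28 SE did not pass (95% confidence interval -1.19 to 0.32, adjusted p = 0.33, edgeR quasi-likelihood test with Benjamini-Hochberg). For Fabp4 it was -0.21 without control replicate 3, -0.28 without Rnf40ΔSC replicate 3 and -0.62 without control replicate 2, again without passing. Lpl was at 411, 319 and 460 CPM in the controls and at 248, 258 and 250 CPM in Rnf40ΔSC. All Rnf40ΔSC libraries were nearly equal and below the controls (log2 fold change -0.66 ± 0.10 SE, adjusted p = 6.01e-06, edgeR quasi-likelihood test with Benjamini-Hochberg), past the limit on p and short of the limit on fold.

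Pparg (chr6:115311239-115440419 in mm9, plus strand) encodes the nuclear receptor that directs fat cell differentiation and is also present in macrophages and endothelium. It had 24, 20 and 55 counts in the controls and 17, 12 and 16 counts in Rnf40ΔSC, which correspond to 19.6, 11.2 and 24.4 compared to 7.25, 7.45 and 6.58 CPM. The groups did not overlap, and the controls differed among themselves by a factor of 2.17. Pparg fell by 1.39 on the log2 scale (SE 0.30, 95% confidence interval -2.01 to -0.77, adjusted p = 0.000475, edgeR quasi-likelihood test with Benjamini-Hochberg). The call rested on control library 3. Without it Pparg was at -1.08, with an adjusted p of 0.0307 (edgeR quasi-likelihood, Benjamini-Hochberg; 5.99e-05 to 0.0518 over all alternatives), and its mean normalised count of 19.0 was below the limit of 20.

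The promoter of Pparg with C/EBP matches is shown for the same reason as that of Plin1. It lies at chr6:115421816-115422115 (GRCm38.p6, plus strand), with matches from -215 to -208 and from -16 to -9 in capitals.
Pparg: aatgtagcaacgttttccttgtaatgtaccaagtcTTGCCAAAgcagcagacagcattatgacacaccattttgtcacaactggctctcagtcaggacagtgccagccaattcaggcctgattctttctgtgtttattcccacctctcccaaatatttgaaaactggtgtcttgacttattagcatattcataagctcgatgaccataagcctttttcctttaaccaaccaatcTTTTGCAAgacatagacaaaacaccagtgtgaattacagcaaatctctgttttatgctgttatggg

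**Figure D2:**
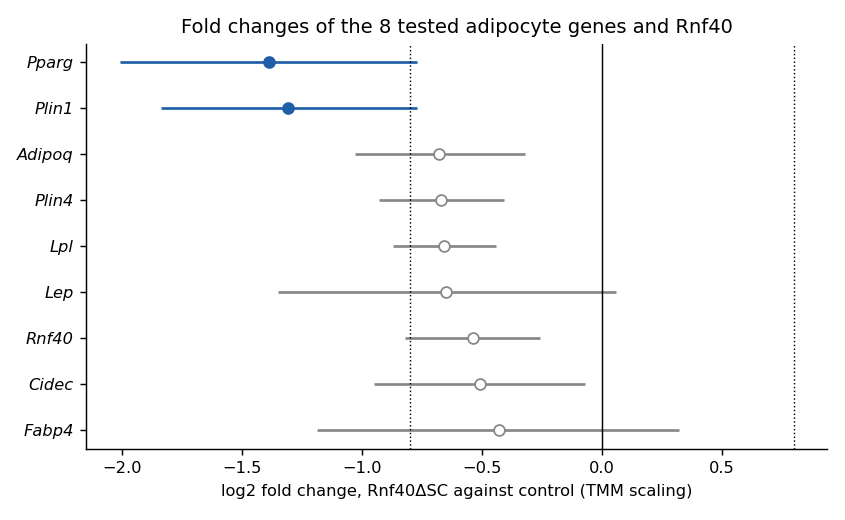
Log2 fold change of Rnf40ΔSC against control (horizontal axis) with 95% confidence interval for the 8 tested adipocyte genes and Rnf40. Filled blue points were called, and dotted lines mark 0.8 in either direction. All points are below 0, and the intervals of Lep and Fabp4 include 0.

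Levels were compared between genes per kilobase of exon (RPKM, CPM divided by the exon length in mm9). In the controls Fabp4 was highest, at 1380 ± 382 RPKM (SD, n = 3), followed by Lpl at 58.2 ± 10.5, Adipoq at 44.3 ± 11.4, Plin1 at 19.9 ± 5.89, Plin4 at 19.5 ± 3.43, Cidec at 13.6 ± 2.59 and Pparg at 9.28 ± 3.36 RPKM. Ucp1, at 4.34 ± 7.22, Lep, at 3.30 ± 0.992, and Cidea, at 1.68 ± 2.51 RPKM, were last. Only Fabp4 and the step from Adipoq to Plin1 were separated from the next gene by more than both SDs together, and Lpl and Adipoq, Plin1 and Plin4, and the last 3 genes were within their spread. In Rnf40ΔSC the order was Fabp4 (1020 ± 195 RPKM), Lpl (37.0 ± 0.744), Adipoq (28.1 ± 4.61), Plin4 (12.2 ± 1.36), Cidec (9.75 ± 1.22), Plin1 (7.92 ± 3.18), Pparg (3.57 ± 0.231), Ucp1 (2.17 ± 2.89), Lep (2.14 ± 0.726) and Cidea (1.06 ± 1.06). Plin1 stood ahead of Plin4 and Cidec in the controls and behind them in Rnf40ΔSC, and neither its lead over Plin4 in the controls nor its distance from Cidec in Rnf40ΔSC exceeded its own SD. Its lead over Cidec in the controls and its distance from Plin4 in Rnf40ΔSC exceeded its own SD but not both SDs together. In Rnf40ΔSC the steps from Fabp4 to Lpl, Lpl to Adipoq, Adipoq to Plin4 and Plin1 to Pparg exceeded both SDs together, and the others did not.

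The brown fat genes were unevenly spread over the libraries of each genotype. Ucp1 (chr8:85814247-85822355 in mm9, plus strand), the uncoupling protein of brown and beige mitochondria, had 0, 1 and 47 counts in the controls and 1, 2 and 22 counts in Rnf40ΔSC. Cidea, a droplet protein of brown fat that overlaps B430212C06Rik on the other strand, had 0, 1 and 12 counts in the controls and 0, 2 and 6 counts in Rnf40ΔSC. In both genotypes the library labelled replicate 3 was high and the other libraries were at 2 counts or fewer.

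For Ucp1 the exact 95% Poisson interval was 15.3 to 27.7 CPM around 20.8 in control library 3 and 5.67 to 13.7 CPM around 9.04 in Rnf40ΔSC library 3. The highest upper bound in the other libraries was 4.49 CPM. The 0 counts in control library 1 had an upper bound of 3.02 CPM. For Cidea the intervals in control library 3 (2.75 to 9.29 CPM) and Rnf40ΔSC library 3 (0.905 to 5.37 CPM) overlapped those of other libraries. Intervals cover counting error only.

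Between genotypes, Ucp1 was at 7.13 ± 11.9 compared to 3.57 ± 4.76 CPM and Cidea at 1.96 ± 2.92 compared to 1.24 ± 1.23 CPM (SD, n = 3). No motif was found in the promoter of Ucp1, shown here as that of the gene with the most uneven counts (chr8:83290098-83290397 in GRCm38.p6, plus strand).
Ucp1: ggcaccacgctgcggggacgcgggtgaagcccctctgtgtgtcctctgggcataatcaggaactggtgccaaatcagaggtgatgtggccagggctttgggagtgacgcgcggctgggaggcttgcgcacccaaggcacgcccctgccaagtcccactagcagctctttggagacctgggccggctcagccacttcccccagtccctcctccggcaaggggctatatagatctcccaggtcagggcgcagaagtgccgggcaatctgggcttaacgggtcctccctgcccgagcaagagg

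The replicate 3 libraries held 69 of 73 Ucp1 reads (94.5%) and 18 of 21 Cidea reads (85.7%), compared to 40.1% of all reads. For the 8 white or shared genes this share lay between 28.7% (Lep) and 53.3% (Plin1). Among 12974 genes with at least 20 reads in total, 7 had at least 80% of their reads in these libraries, a threshold set after the values were seen, and Ucp1 had the highest share. The others were Cidea, Ankrd2, Lmod2 and Sln, together with Myh3 and Myh7 of the skeletal muscle list described below. All of these except Cidea had most reads in Rnf40ΔSC library 3 (Myh7 143 of them, compared to 22 in control library 3), whereas Ucp1 and Cidea had most in control library 3.

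Within replicate 3, Ucp1 was higher in the control by a factor of 2.3 (exact 95% interval 1.36 to 4.02), and Adipoq by a factor of 2.32 (1.77 to 3.08). The ratio of Ucp1 to Adipoq per exon length was therefore close in both, at 0.235 in control library 3 and 0.237 in Rnf40ΔSC library 3. In the other libraries it was between 0 and 0.0233. Cidea differed by a factor of 2.16 with an interval from 0.749 to 7.01, which includes 1. These intervals compare the libraries and not the genotypes.

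The summed CPM of Adipoq, Plin1, Cidec, Lep, Ucp1 and Cidea was 137, 113 and 185 in the controls and 79.3, 86.9 and 85.9 in Rnf40ΔSC. Of this, Ucp1 and Cidea made up 26.1 CPM in control library 3 and 11.5 CPM in Rnf40ΔSC library 3. In the sum, control library 3 was highest, and Rnf40ΔSC library 3 lay between its replicates. The mean in Rnf40ΔSC was 0.581 of that in the controls (84.0 ± 4.13 compared to 145 ± 36.7 CPM, SD, n = 3), 0.674 without control replicate 3 and 0.698 with scaling by total counts. Without both replicate 3 libraries, an alternative added after the values were seen, Plin1 remained called. Pparg, at -1.01 (adjusted p = 0.0518, edgeR quasi-likelihood test with Benjamini-Hochberg), did not, and 3 of the 8 white or shared genes passed adjusted p (Plin1, Plin4 and Lpl). All 8 were below 0, with a median log2 fold change of -0.57, among them Fabp4 at -0.06 (adjusted p = 0.738, same test) and Adipoq at -0.35 (adjusted p = 0.209, same test).

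**Figure D3:**
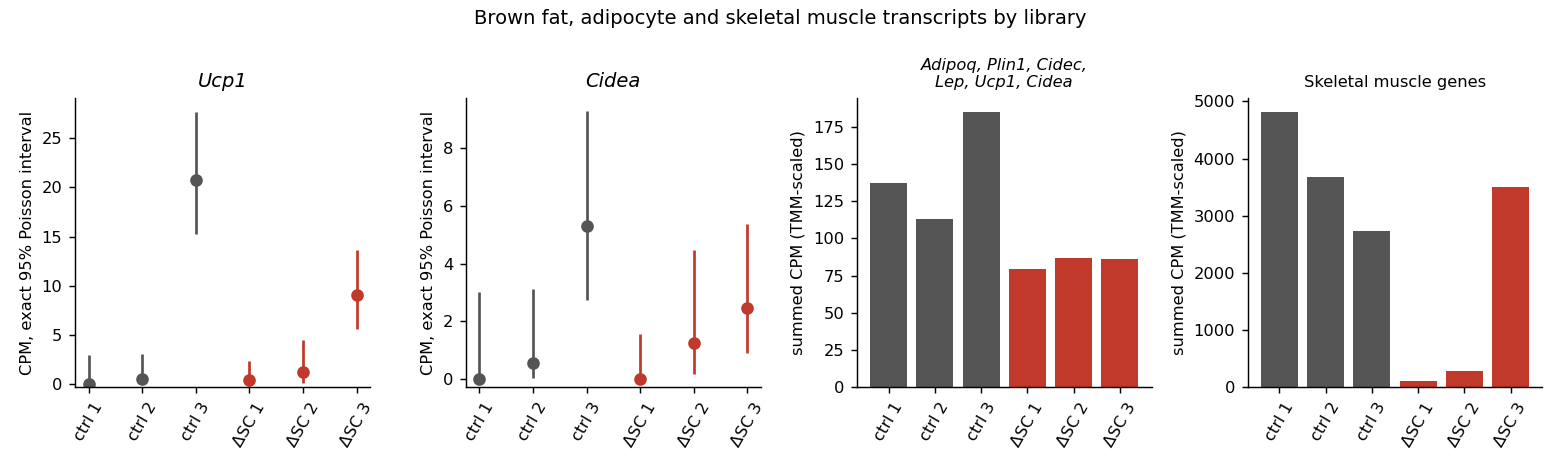
From left to right: CPM of Ucp1 and of Cidea with exact 95% Poisson intervals, summed CPM of 6 adipocyte genes and summed CPM of the 18 skeletal muscle genes, each in control (grey) and Rnf40ΔSC libraries (red). Ucp1 reaches 20.8 and 9.04 CPM in the libraries labelled replicate 3, and the muscle sum is low in Rnf40ΔSC libraries 1 and 2.

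Of 21 other genes of the brown fat programme, 8 could be tested and 13 had too few reads for the test. At most 3 counts in any library were found for 5 of them, of which 3 (Elovl3, Zic1 and Bmp8b) had no read at all. The median log2 fold change was -0.03, with 0.09 without Rnf40ΔSC replicate 2 and -0.1 without Rnf40ΔSC replicate 1. By edgeR, 1 was called lower and 1 higher (DESeq2: 1 and 1; unadjusted p under 0.05: 2 and 2), compared to 4.99% and 3.65% of all tested genes. Pank1, a pantothenate kinase for coenzyme A synthesis, was at 27.0, 33.1 and 39.0 CPM in the controls and at 7.25, 7.45 and 17.3 CPM in Rnf40ΔSC and fell by 1.61 on the log2 scale. Ppargc1a, a coactivator of mitochondrial genes, was at 18.0, 13.5 and 16.8 CPM in the controls and at 27.3, 29.8 and 28.8 CPM in Rnf40ΔSC and rose (log2 fold change 0.83 ± 0.21 SE), a call that was lost without control replicate 2 (0.72). Both groups of libraries were separate for both genes. Prdm16, a regulator of brown fat fate and the highest of the list in CPM, was at 77.7, 79.7 and 69.2 CPM compared to 89.1, 80.7 and 90.8 CPM and did not pass. Otop1, a proton channel gene named after its values were seen, had 3, 0 and 3 counts in the controls and 29, 18 and 40 counts in Rnf40ΔSC. It passed the limits on p and fold but not that on mean count. None of these 4 genes was restricted to the replicate 3 libraries.

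The spread among replicates was then described for each genotype. The coefficient of variation over 3 control libraries had a median of 26.8% over the 8 tested adipocyte genes and of 13.0% over all tested genes. In Rnf40ΔSC the medians were 14.4% and 13.4%. In the controls library 3 was highest for 7 of the 8 genes, and the exception was Lep, whereas in Rnf40ΔSC the highest library was replicate 2 for 4 genes and replicates 1 and 3 for 2 genes each.

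The spread was set beside counting error. Fabp4 varied by 27.7% in the controls, where counting alone gives 2.60%, and Lpl by 18.1% compared to 3.90%. Lep varied by 30.1% with 23.6% from counting alone, which is not far above counting error. In Rnf40ΔSC, Lpl varied by 2.01%, Pparg by 6.46% and Cidec by 12.5%, less than the 4.40%, 26.3% and 16.4% from counting alone. The other tested genes varied by more than counting in Rnf40ΔSC too. These were Fabp4 (19.1% compared to 2.74%), Plin1 (40.1% compared to 17.6%), Adipoq (16.4% compared to 11.3%), Plin4 (11.1% compared to 8.28%) and Lep (34.0% compared to 26.6%). Ucp1 varied by 166% in the controls and 133% in Rnf40ΔSC, compared to 25.0% and 34.9% from counting alone. In the fitted model, the biological coefficient of variation of 7 of 8 genes (all but Cidec) was above the trend for their abundance, as for 30.8% of all tested genes. The median was 0.144 compared to 0.110 for all tested genes. Plin1 (0.183), Pparg (0.185) and Lep (0.191) had the highest values and exceeded 91.4%, 91.8% and 93.2% of all tested genes of any abundance. The trend values at their own abundance were 0.122, 0.157 and 0.177, so that Lep was only slightly above its trend. Fabp4 was at 0.153 with a trend value of 0.108. Without Rnf40ΔSC replicate 3 the median of the adipocyte genes was 0.101. The median of all tested genes is not given without this library, so that the fall cannot be read as particular to the adipocyte genes.

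**Figure D4:**
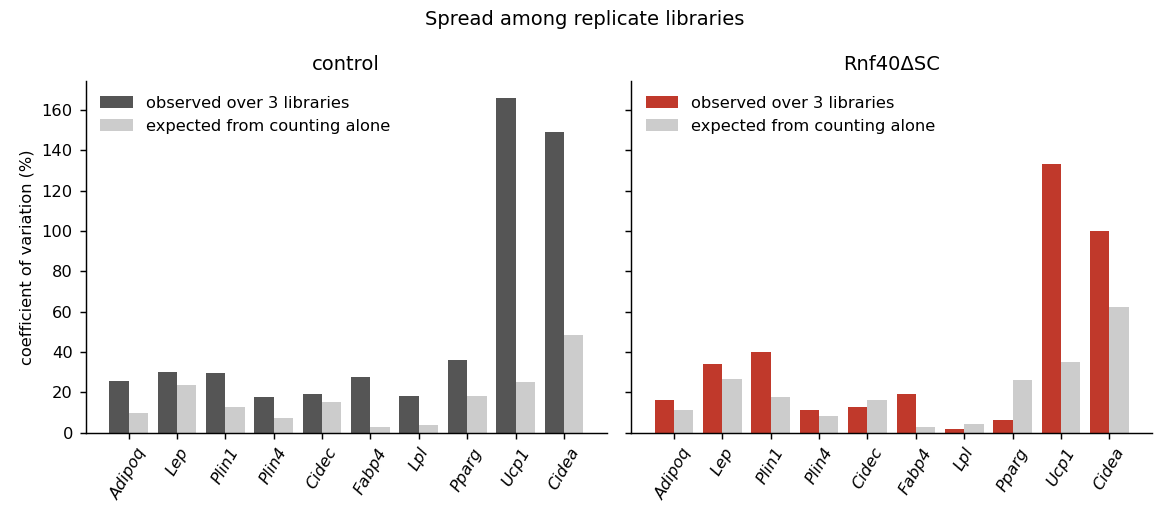
Coefficient of variation in percent (vertical axis) of the 10 adipocyte genes over 3 libraries of each genotype. Coloured bars are the observed values and light bars the values that counting error alone would give. Ucp1 and Cidea stand out in both genotypes. Fabp4 varies by more than counting error in both genotypes, and Lpl does so in the controls only.

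Genes of fat storage other than the 10 were examined as lists, many of whose genes are also expressed by Schwann cells, endothelium or muscle. For comparison with each list, the shares of all tested genes were 4.99% called lower and 3.65% called higher (DESeq2: 4.34% and 3.25%; unadjusted p under 0.05: 20.7% and 20.3%). Of 20 lipid droplet and lipolysis genes, 16 were tested, with a median log2 fold change of -0.65, and 5 were called lower and 0 higher (DESeq2: 4 and 0; unadjusted p under 0.05: 9 and 0). Lipe, the hormone-sensitive lipase, was at 54.8, 46.0 and 65.2 CPM in the controls and at 32.0, 25.5 and 26.7 CPM in Rnf40ΔSC and fell by 0.98 on the log2 scale. Abhd5, which activates the first lipase of the droplet, was at 69.5, 79.1 and 76.3 compared to 43.9, 29.8 and 38.6 CPM and fell by 0.99. The caveolar genes Cav1, the highest of the list in CPM, and Cav2 fell by 0.89 and 1.00, and both are abundant in endothelium too. The groups were separate for these 4 genes. The fifth called gene, Pnpla3, had overlapping groups and lost its call in 7 of 13 alternatives, among them those without control replicate 3 (-0.28), Rnf40ΔSC replicate 2 (-0.78) or Rnf40ΔSC replicate 3 (-0.72). The list depended on libraries and on scaling. Without Rnf40ΔSC replicate 1 the median was -0.89 and 8 genes were called lower, the others being Mgll, Plin2 and Plin3, named after their values were seen. The median was -0.43 without control replicate 3 and -0.45 without both replicate 3 libraries, where 3 genes were called (Abhd5, Cav1 and Cav2). With scaling by total counts it was -0.39, and all 5 calls were lost. By adjusted p 5 genes rather than 8 were lower under it, a count without a share of all tested genes for this scaling.

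Of 16 genes of fatty acid and glucose supply and triglyceride synthesis, 15 were tested, with a median of -0.21, and 3 were called lower and 0 higher (DESeq2: 3 and 0; unadjusted p under 0.05: 5 and 1). The median was -0.38 without control replicate 2, -0.37 without Rnf40ΔSC replicate 3 and -0.11 without control replicate 3. Without Rnf40ΔSC replicate 1 only 1 gene of the list was called, Gpd1. Gpd1, which makes glycerol phosphate for triglyceride synthesis, was at 200, 193 and 209 CPM in the controls and at 57.1, 79.5 and 98.2 CPM in Rnf40ΔSC and fell by 1.36. Pck1, which supplies glycerol in fat cells, fell by 0.90, and Acsl1, which activates fatty acids, by 0.87. Pck1 lost its call without control replicate 3 (-0.60), Rnf40ΔSC replicate 1 (-0.80, short of the limit before rounding) or Rnf40ΔSC replicate 2 (-0.78), and Acsl1 without control replicate 1 (-0.78) or Rnf40ΔSC replicate 1 (-0.75). The fatty acid transporter Cd36, the highest of this list in CPM, was at 290, 223 and 323 CPM compared to 185, 192 and 179 CPM, with a log2 fold change of -0.59 that was short of the fold limit.

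Adipogenic transcription factors and adipokines were examined in the same way. Of 12 transcription factor genes, all tested, the median was -0.11 (-0.02 without Rnf40ΔSC replicate 1 and -0.2 without Rnf40ΔSC replicate 3). By edgeR 1 was called lower and 0 higher (DESeq2: 0 and 0; unadjusted p under 0.05: 4 and 2). This was Cebpa, a partner of Pparg in mature fat cells, at 27.0, 19.1 and 19.5 CPM in the controls and 10.2, 14.3 and 10.3 CPM in Rnf40ΔSC (log2 fold change -0.91), which lost its call without control replicate 1 (-0.76). Without control replicate 2, Klf5, named after its values were seen, was called too (-0.81). Ebf2, the highest in CPM, was at 132, 97.6 and 100 compared to 87.8, 82.6 and 99.0 CPM and did not pass. Of 10 genes for adipokines and their receptors, all tested, the median was -0.07, and 2 were called lower and 0 higher (DESeq2: 2 and 0; unadjusted p under 0.05: 4 and 1). The median of this list changed sign to 0.08 without control replicate 3 and was -0.18 without control replicate 2. Cfd, the secreted protease adipsin, was at 170, 107 and 189 CPM in the controls and at 77.6, 86.3 and 78.1 CPM in Rnf40ΔSC and fell by 0.95, and Cdh13, a receptor of adiponectin that is also made by endothelium, fell by 0.93. Cfd lost its call without control replicate 3 (-0.76), Rnf40ΔSC replicate 2 (-0.99, by p) or Rnf40ΔSC replicate 3 (-0.93, by p), and Cdh13 without control replicate 1 (-0.74). Adipor1, the highest of the list in CPM, was at 226, 249 and 243 compared to 276, 305 and 223 CPM. With scaling by total counts, 3 of the 13 calls in these lists and the thermogenic list were kept (Gpd1, Pank1 and Ppargc1a). The medians of the supply, transcription factor, adipokine and thermogenic lists changed sign to 0.06, 0.16, 0.19 and 0.24, below the 0.264 of all genes. The study lists Gpd1 and Pank1 among genes with both lower expression and less ubiquitinated histone H2B in Rnf40ΔSC nerves. It proposes such genes as candidates for direct regulation by Rnf40 in Schwann cells. Which cells their lower RNA came from was not tested here.

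**Figure D5:**
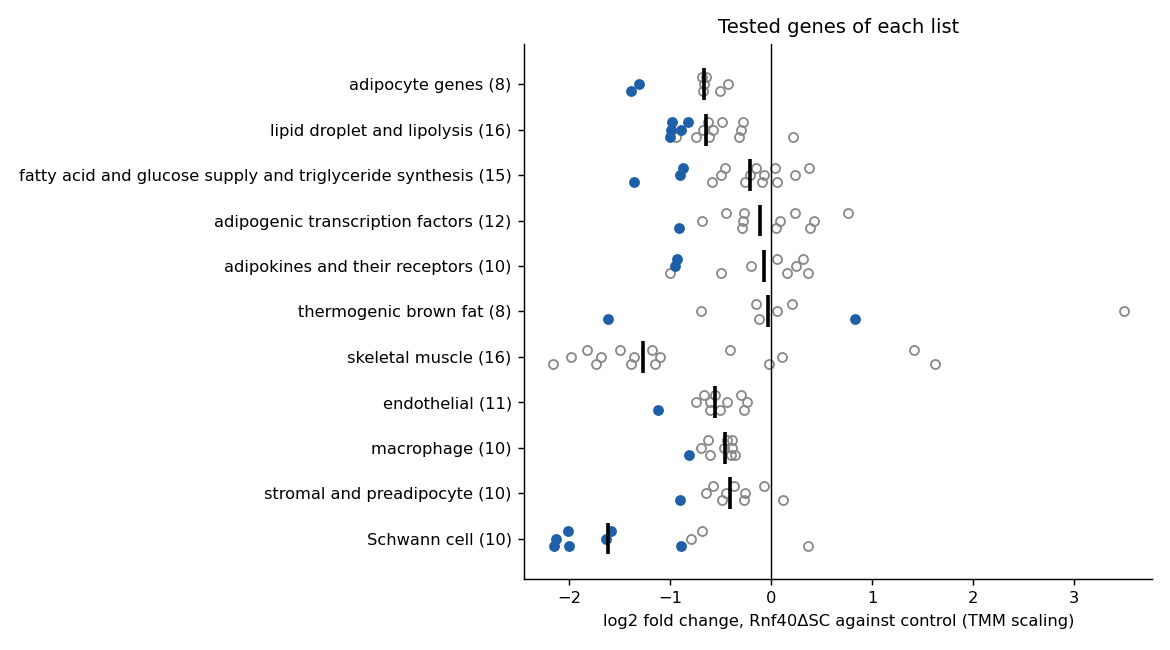
Log2 fold change of Rnf40ΔSC against control (horizontal axis) for the tested genes of each list, whose number is given in brackets. Filled blue points were called, thick bars are list medians and the thin line is the median of all tested genes. The droplet and lipolysis list lies with the adipocyte genes at -0.65 and -0.66, and the muscle genes spread from below -2 to above 1.

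Markers of other cell types moved with the genotype as well. Of 11 endothelial genes, all tested, 1 was called lower (Cldn5) and 0 higher (DESeq2: 1 and 0; unadjusted p under 0.05: 8 and 0), with a median of -0.56 and summed levels of 921, 805 and 917 CPM in the controls and 582, 572 and 694 CPM in Rnf40ΔSC. The highest in CPM was Cdh5, and none was at 0 in all libraries. Without Rnf40ΔSC replicate 3, 5 endothelial genes were called lower (Cldn5 and, named after their values were seen, Eng, Kdr, Tek and Tie1), with a median of -0.65. Without both replicate 3 libraries 4 were called (all of these but Tek), and without control replicate 2 there were 2 (Cldn5 and Eng). Of 13 macrophage genes, 10 were tested and 1 was called lower (Cd68) and 0 higher (DESeq2: 0 and 0; unadjusted p under 0.05: 8 and 0), with a median of -0.45 and sums of 518, 478 and 523 compared to 354, 351 and 358 CPM. The call of Cd68 was lost in 6 of 13 alternatives, which were those with total-count scaling (-0.54), DESeq2 (-0.79), a replicate block (-0.79, by fold), without control replicate 3 (-0.55), without Rnf40ΔSC replicate 2 (-0.72) and without both replicate 3 libraries (-0.61). The gene with the highest CPM was Csf1r, and none was at 0 in all libraries. By staining, the study reports the other direction for the cells at this age, with Iba1-positive macrophages a larger share of nerve cells in Rnf40ΔSC. In its RNA data of this age, the study found no sign of substantially higher immune response genes. Aif1, which encodes Iba1, had at most 3 counts in any library and was not tested. Of 10 stromal and preadipocyte genes, all tested, 1 was called lower (Pi16) and 0 higher (DESeq2: 1 and 0; unadjusted p under 0.05: 8 and 0), with a median of -0.41 and sums of 15400, 15200 and 16400 compared to 12600, 11800 and 12600 CPM. Highest in CPM was Col1a1, and none was at 0 in all libraries. Of the 10 Schwann cell genes, all tested, 7 were called lower and 0 higher (DESeq2: 7 and 0; unadjusted p under 0.05: 9 and 1), with a median of -1.61. By log2 fold change 11 of 11 endothelial, 10 of 10 macrophage and 9 of 10 stromal genes were below 0, of which 7, 7 and 8 passed adjusted p, beside 8 of 8 and 5 for the adipocyte genes. These counts depended on scaling. With scaling by total counts 2 endothelial, 2 macrophage and 3 stromal genes were lower past adjusted p, beside 4 of the adipocyte genes. The medians were -0.29, -0.19 and -0.14, beside -0.40 for the adipocyte genes and 0.264 for all genes. No share of all tested genes lower by adjusted p is given for this scaling. Under it Cldn5 and 6 of the 7 Schwann cell genes kept their calls, whereas Pi16, at -0.63, lost its call as Cd68 did. The part of endothelium, macrophages and stroma in the lower Fabp4, Lpl, Pparg and Cd36 values was not tested.

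Skeletal muscle genes followed another pattern. The summed level of 18 muscle genes was 4820, 3680 and 2730 CPM in the controls and 116, 281 and 3510 CPM in Rnf40ΔSC, so that Rnf40ΔSC libraries 1 and 2 were low and Rnf40ΔSC library 3 was within the range of the controls. The highest in CPM was Myh4, a fast myosin, at 1400, 930 and 696 compared to 24.7, 28.6 and 605 CPM, and none was at 0 throughout. Of 16 tested genes, 0 were called by edgeR in either direction (DESeq2: 0; unadjusted p under 0.05: 0), with a median of -1.27. Without Rnf40ΔSC replicate 3, 12 of 16 were called lower. The sum of 6 adipocyte genes was 79.3, 86.9 and 85.9 CPM in Rnf40ΔSC libraries 1 to 3. Ucp1 and Cidea made up 0.426, 2.48 and 11.5 CPM of it, respectively. Plin1 and Pparg were still called without Rnf40ΔSC replicate 3. Among the 8 tested genes, Plin1 (22.2 CPM compared to 11.5 and 11.8 CPM) and Plin4 were highest in Rnf40ΔSC library 3. The part of muscle in these values was not tested.

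The genes most like Adipoq over the 6 libraries were sought among 9251 other tested genes with a mean normalised count of at least 20. Likeness was the root mean square difference of centred log2 CPM, whose median over these genes was 0.465. The nearest were Hyal1 (0.113), Rasl12 (0.128), Cd36 (0.131), Ndrg4 (0.138), Ap3s1 (0.141), Prdx4 (0.144), Sdc1 (0.145) and Lpl (0.145). Hyal1, a hyaluronidase, was at 16.4, 14.0 and 22.2 CPM in the controls and at 10.2, 12.4 and 8.63 CPM in Rnf40ΔSC, with control library 3 highest and Rnf40ΔSC library 3 lowest, as for Adipoq. Of the adipocyte genes, Fabp4 was at a difference of 0.162, Plin4 at 0.230, Pparg at 0.313 and Cidec at 0.329, whereas Lep (0.472) and Plin1 (0.539) were farther from Adipoq than the median gene. Lep had 11 to 26 counts per library, and its mean normalised count of 17.2 was below the limit for the ranked genes. The measure also includes the change with genotype, with a log2 fold change of -1.31 for Plin1 and -0.68 for Adipoq. With 6 libraries the ranking describes these samples only.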

How the data were processed

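RNA of 6 pools of sciatic nerve was sequenced, and the authors deposited whole-number read counts per gene for each library. Per the methods of the study, reads were aligned to mm9 with TopHat and uniquely mapped reads were counted with HTSeq. The processing notes in the labels name Bowtie2 2.1.0, HTSeq and both mm9 and mm10. The library kit is NEB Next Ultra in the labels and a directional NEXTFLEX kit in the methods, and the strand setting of counting is not given in the sources used here.

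Counts were tested in edgeR 4.0.16 (R 4.3.3) with the robust quasi-likelihood test on genotype, TMM scaling, filterByExpr and Benjamini-Hochberg adjustment over 11371 tested genes, with DESeq2 1.42.0 as an alternative. The steps were tested on simulated data. Exon lengths and gene positions were taken from GENCODE models in mm9 and promoters from RefSeq (GRCm38.p6). The text names the 10 genes, Rnf40, the gene with the highest mean CPM (not corrected for length) and up to 4 called genes of each list, and the 8 genes most like Adipoq, and 1 gene of this rule is not reported here. Genes and lists were chosen with earlier results of these data known. Alternatives covered scaling, tool, filters, a replicate block, the call rule and each library left out.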

Additional observations from a re-analysis of the deposited data

How the results depend on the processing

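All 8 tested adipocyte genes kept a negative log2 fold change under every alternative run. The 2 calls among them became 5 by adjusted p alone, 1 without both replicate 3 libraries (added after the data were seen) and 1 to 4 with each library left out. Calls among all genes became 262 lower and 1002 higher with total-count scaling, and 1841 lower and 1757 higher by adjusted p alone. With each library left out they ranged from 548 to 697 lower and from 371 to 469 higher. The 13 calls in the 5 fat lists became 3 with total-count scaling and 24 by adjusted p alone, and 10 to 14 with each library left out. The cause was not tested, except that adjusted p alone applies fewer limits. The summed level of 6 adipocyte genes in Rnf40ΔSC was 0.523 to 0.674 of control with each library left out and 0.686 for all 10 genes. The median biological coefficient of variation of 0.144 became 0.0952 without both replicate 3 libraries and 0.101 to 0.154 with each library left out. For all tested genes the medians under these settings are not given.

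Libraries with the same replicate number did not deviate together (correlations across genes -0.095, -0.015 and -0.062), although Ucp1 and Cidea were high in both replicate 3 libraries. Whether a number stands for shared handling is not known. With a replicate block, 2 adipocyte genes, 12 list genes, 565 genes lower and 408 genes higher were called. Without a filter on low counts Ucp1 was at -1.11 (SE 1.74) and with the block at -0.86 (SE 0.53, adjusted p = 0.283 in edgeR, Benjamini-Hochberg; range 0.283 to 0.874). Ucp1, Cidea and Lep had at most 47 counts in any library.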
